A study of Homo sapiens with 9 samples.

Results

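LIM1215-R1 is a population of the human colorectal cancer cell line LIM1215 that had acquired resistance to cetuximab, an antibody that blocks the epidermal growth factor receptor (EGFR). It was compared across genes with the LIM1215-parental line from which it was selected. The comparison used 6 of the 9 RNA-seq libraries of the study, 3 of LIM1215-R1 and 3 of LIM1215-parental, chosen by their labels. The other 3 libraries came from LIM1215-R2, a resistant population selected alongside LIM1215-R1, and were used to see where the resistant lines differed. LIM1215-R1 was exposed to stepwise increasing cetuximab and is a mixed population, not a clone, whereas LIM1215-parental was kept over the same period without the antibody. From its RNA sequencing the study reports activating mutations of the RAS gene HRAS in a subpopulation of each resistant line. They lie in different exons in LIM1215-R1 and LIM1215-R2, and their part in the differences below was not tested. Cells of every line were in culture without treatment when RNA was taken, so no library was made under the antibody. The study names its replicates technical, so p-values measure only the spread between these libraries. How the cultures were kept or harvested cannot be told apart from the line itself.

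EGFR pairs with its relatives ERBB2 and ERBB3, and these receptors activate the RAS and MAPK cascade once a ligand such as epiregulin or amphiregulin has bound EGFR. The cascade switches on early genes and also genes that dampen it, the DUSP phosphatases and the SPRY and SPRED proteins. NF-kB is a family of transcription factors, held inactive by the inhibitor encoded by NFKBIA, that drives chemokines and survival genes. The p53 factor drives genes of cell cycle arrest and cell death, among them CDKN1A, which encodes the cyclin-dependent kinase inhibitor p21. In the colon, goblet cells secrete mucins, absorptive colonocytes carry digestive and transport proteins, and both arise from stem cells that depend on Wnt signalling.

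The files listed 58920 genes, of which 27416 had a count in the 6 libraries and 17926 had at least 10 counts over them and were tested. Total counts were 13737416 to 18725014 in the parental libraries and 16156774 to 16466447 in those of LIM1215-R1. A count of 3, the limit that a count of 0 allows, was worth 0.158 to 0.217 CPM (counts scaled to a common library size) in one of these libraries, which covers counting error only. Correlations of log2 CPM between libraries of one line were at least 0.9895, and those between LIM1215-R1 and libraries of other lines were at most 0.9874. The summed level of 11 epithelial markers was 12994 to 13358 CPM in parental and 16940 to 17246 CPM in LIM1215-R1 libraries, with KRT20 at 0 throughout. Mean levels of KRT8, KRT18, KRT19, VIL1 and CEACAM5 were higher in LIM1215-R1, whereas those of EPCAM, CDH1, CDX1, CDX2 and CDH17 were lower. The leukocyte marker PTPRC was at 0, and the 4 leukocyte markers together reached at most 0.245 CPM. The 7 markers of fibroblasts and muscle together reached at most 2.65 CPM in parental and 1.07 CPM in LIM1215-R1 libraries. For the 3 endothelial markers these values were 0.722 and 0.184 CPM.

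LIM1215-R1 differed from LIM1215-parental at 945 differentially expressed genes (DEGs), called where the adjusted p did not exceed 0.01 and the log2 fold change reached 1.5 in either direction. Of the genes tested, 598 were DEGs higher in LIM1215-R1 (3.34%) and 347 were DEGs lower (1.94%). The test was the quasi-likelihood test of edgeR, adjusted over all genes tested by the method of Benjamini and Hochberg. At the same adjusted p without a limit on size, 2481 genes (13.8%) rose and 2231 (12.4%) fell, and "rose", "fell" and "changed" are used in this sense. In bulk RNA of a mixed population, a shift in the share of cells and a shift of RNA per cell cannot be told apart. The median log2 fold change of all tested genes was -0.01. Protein coding genes made up 825 of the DEGs and long noncoding RNAs 96. A mean under 10 counts per library was found for 268 DEGs, so that many rest on few reads. Among the DEGs, 61 were at 0 in all parental libraries and 51 at 0 in all libraries of LIM1215-R1.

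**Figure D1:**
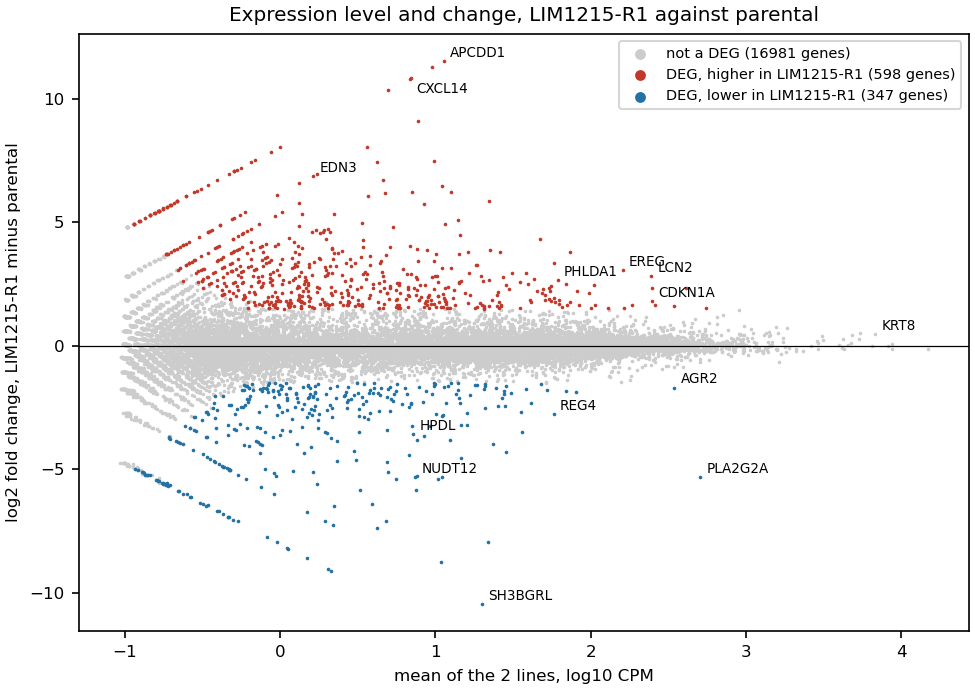
Log2 fold change of LIM1215-R1 against LIM1215-parental (y axis) by the log10 of the mean CPM of both lines (x axis), with 1 point per tested gene. The 598 higher and 347 lower DEGs are coloured, the scatter widens towards low levels, and the oblique rows of points at the left are genes at or near 0 in one line, whose plotted change is no bound.

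Among the DEGs with the largest increases, SMOC2, a secreted calcium-binding matrix protein of stem cells, rose from 0.304 ± 0.326 CPM (mean ± SD, n = 3 for all such values) in LIM1215-parental to 24.8 ± 1.09 CPM in LIM1215-R1. Its relative SMOC1 rose from 0.755 ± 0.175 to 43.6 ± 3.12 CPM. CLDN2, a claudin of leaky tight junctions, rose from 0.263 ± 0.292 to 21.9 ± 2.11 CPM. SMOC2 and CLDN2 were thus near the limit of detection in parental cells, whereas SMOC1 was low there but had 10, 13 and 14 counts. All 3 genes were clearly expressed in the resistant line. SH3GL3, an endophilin of membrane traffic, rose from 0.0984 ± 0.0236 to 19.4 ± 0.581 CPM, and P3H3, a collagen-modifying enzyme, from 0.182 ± 0.0552 to 14.0 ± 1.09 CPM. APCDD1, which encodes an inhibitor of Wnt signalling, was at 0 in all parental libraries and reached 22.7 ± 2.16 CPM in LIM1215-R1, at least 378-fold higher. PGBD5, a gene derived from a transposase, had 1 parental count in all and 15.3 ± 0.614 CPM in LIM1215-R1, a ratio of 765 with a 95% counting interval from 137 to 30245. Mean levels in LIM1215-R2 were 8.65 CPM for SMOC2, 43.3 CPM for SMOC1, 18.7 CPM for CLDN2, 11.7 CPM for SH3GL3 and 8.16 CPM for P3H3. For APCDD1 and PGBD5 they were 4.27 and 6.16 CPM.

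The DEG with the largest decrease among those named was SH3BGRL, which encodes a small thioredoxin-like protein. It had 39.8 ± 1.26 CPM in LIM1215-parental and 1 count in all in LIM1215-R1, a ratio of 1924 with a 95% counting interval from 345 to 76022. PLA2G2A, a secreted phospholipase with antibacterial action, read 953, 1054 and 956 CPM in the parental libraries and 22.2, 23.5 and 28.7 CPM in those of LIM1215-R1, so its log2 fold change was -5.31 (SE 0.0763, edgeR adjusted p = 4.18e-18). Its levels in LIM1215-R1 were far below every parental library, and the mean was 24.8 ± 2.24 CPM in LIM1215-R2. PLXDC2, a membrane protein of the plexin domain type, fell from 43.3 ± 2.64 to 0.167 ± 0.182 CPM. GNE, the enzyme that starts sialic acid synthesis, fell from 14.8 ± 1.04 to 0.249 ± 0.0644 CPM, and VAV3, a guanine nucleotide exchange factor, from 10.8 ± 0.418 to 0.248 ± 0.161 CPM. CDHR1, a cadherin-related protein, had 21.5 ± 1.92 CPM in LIM1215-parental and 2 counts in all in LIM1215-R1, a ratio of 523 with a 95% counting interval from 144 to 4324. Mean levels were low in LIM1215-R2 too, at 0.0413 CPM for SH3BGRL, 0.104 CPM for PLXDC2, 0.702 CPM for GNE, 0.168 CPM for VAV3 and 0.438 CPM for CDHR1.

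Apart from PLA2G2A, the genes with the largest gains and losses in CPM were highly counted genes with small fold changes. The epithelial keratin genes KRT8 and KRT18 rose from 5716 ± 139.8 to 7882 ± 177 CPM and from 4131 ± 80.8 to 5498 ± 47.1 CPM. Their gene models overlap at one end, and the authors counted only reads of the sense strand. The cytoskeletal actin gene ACTB rose from 4419 ± 258 to 6354 ± 326 CPM. FTH1, which encodes the heavy chain of the iron store ferritin, fell from 2012 ± 46.7 to 1253 ± 62.2 CPM. The mitochondrial COX1 fell from 15553 ± 414 to 14244 ± 351 CPM (log2 fold change -0.12, SE 0.0291, edgeR adjusted p = 0.00323), a call lost without several single libraries and with DESeq2's Wald test (adjusted p = 0.0362).

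To find what set LIM1215-R1 apart, its 3 libraries were also tested against the 3 of LIM1215-R2. Of 17687 genes tested, 111 were DEGs higher in LIM1215-R1 (0.628%) and 44 DEGs lower (0.249%), while 786 genes (4.44%) were higher and 650 (3.68%) lower at the adjusted p alone. Both comparisons use the same LIM1215-R1 libraries, so an unusual level there enters both. Of the 17209 genes tested in both, 59 were DEGs higher in LIM1215-R1 than in either other line (0.343%) and 13 were DEGs lower than in either (0.0755%). With DESeq2's shrunken fold changes these counts were 0 and 0, with at least 10 counts in every library 5 and 4, and with edgeR's glmTreat against 1.5 itself 7 and 5.

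Of the genes higher in LIM1215-R1 than in both other lines, EDN3, the peptide ligand endothelin-3, read 3.07, 2.82 and 3.88 CPM in LIM1215-R1, with 0.297, 0 and 0.131 CPM in LIM1215-R2. The parental libraries held 1 count of it, a ratio of 162 with a 95% counting interval from 28.7 to 6449. HLA-DQB1, the beta chain of an MHC class II molecule, read 4.17, 3.20 and 4.0 CPM in LIM1215-R1 against at most 0.413 CPM in any other library. Reads of HLA genes can be shared between paralogs and alleles, so this level is uncertain. NGFR, the low-affinity neurotrophin receptor, was at 0 in all parental libraries and read 1.96, 1.44 and 0.751 CPM in LIM1215-R1, at least 23-fold higher. In LIM1215-R2 it had 4 counts in all, so it was close to undetected in both other lines.

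AFAP1L1, an actin filament-associated protein, read 6.99, 6.34 and 7.82 CPM in LIM1215-R1, with 0.826, 0.433 and 0.420 CPM in LIM1215-parental and 0.476, 0.619 and 0.718 CPM in LIM1215-R2. Its log2 fold changes were 3.64 (SE 0.241, edgeR adjusted p = 1.47e-09) against parental and 3.54 (SE 0.225, adjusted p = 1.3e-11) against LIM1215-R2. PLEKHS1, a protein with a lipid-binding pleckstrin homology domain, read 8.65, 7.53 and 8.26 CPM in LIM1215-R1, with 0.885, 0.650 and 0.683 CPM in LIM1215-parental. It was at 0 in all 3 libraries of LIM1215-R2, at least 131-fold lower. TEAD2, a DNA-binding partner of YAP that was picked for mention after its values were seen, had 8.03 ± 0.452 CPM in LIM1215-R1, 0.783 ± 0.0143 CPM in LIM1215-parental and 1.37 ± 0.682 CPM in LIM1215-R2. TAGLN, the actin-binding transgelin, had 16.2 ± 0.827 CPM against 3.29 ± 0.408 and 2.94 ± 0.168 CPM in these lines.

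Genes under 2 CPM completed the set of largest increases. SPRR2A, a precursor of the cornified envelope of squamous cells, had 1.53 ± 0.134 CPM in LIM1215-R1 against 0.122 ± 0.0201 CPM in LIM1215-parental. ST8SIA6, a sialyltransferase, had 1.49 ± 0.224 against 0.116 ± 0.0427 CPM, and B3GALT1, a galactosyltransferase, 1.16 ± 0.301 against 0.0700 ± 0.121 CPM. NOTUM, a secreted enzyme that inactivates Wnt ligands, had 1.33 ± 0.263 CPM in LIM1215-R1, 0.204 ± 0.267 CPM in LIM1215-parental and 0.183 ± 0.116 CPM in LIM1215-R2. PTCHD4, a Patched-related membrane protein, had 2 parental counts in all, a ratio of 27.4 with a 95% counting interval from 7.22 to 232. In each of these 5 genes the lowest library of LIM1215-R1 lay above the highest of the other lines, which their choice favours.

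Of the genes lower in LIM1215-R1 than in both other lines, NUDT12, a peroxisomal enzyme that cleaves NADH, read 15.4, 12.1 and 15.7 CPM in LIM1215-parental, 13.1, 13.1 and 9.60 CPM in LIM1215-R2 and 0.307, 0.439 and 0.313 CPM in LIM1215-R1. Its log2 fold change was -5.32 (SE 0.222, edgeR adjusted p = 2.57e-12) against parental and -5.05 (SE 0.235, adjusted p = 4.21e-14) against LIM1215-R2. HPDL, a mitochondrial enzyme of coenzyme Q synthesis, read 1.23, 1.07 and 1.00 CPM in LIM1215-R1, against 12.8 to 13.8 CPM in LIM1215-parental and 11.1 to 11.6 CPM in LIM1215-R2. PRKD3, a protein kinase D, read 3.19, 4.27 and 4.07 CPM against 18.5 to 20.1 CPM in LIM1215-parental. These 3 genes, chosen for their difference from both lines, showed no overlap between LIM1215-R1 and either other line.

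KCNS3, a regulatory potassium channel subunit, read 0, 0.188 and 0.0626 CPM in LIM1215-R1, against 1.30, 1.16 and 1.73 CPM in LIM1215-parental and 2.38, 2.79 and 4.05 CPM in LIM1215-R2. SPECC1, a cytospin of the cytoskeleton, read 0.250 to 0.797 CPM in LIM1215-R1, 1.83 to 3.33 CPM in LIM1215-R2 and 18.9 to 23.2 CPM in LIM1215-parental. GNG4, a G protein gamma subunit, had 0.788 ± 0.192 CPM in LIM1215-R1 against 4.62 ± 0.697 CPM in LIM1215-parental. ARHGEF6, an exchange factor for RAC and CDC42, had 0.311 ± 0.0632 against 3.56 ± 0.709 CPM. RAB36, a small GTPase, and HCG11, a long noncoding RNA, had 0.624 ± 0.336 and 0.726 ± 0.184 CPM in LIM1215-R1 against 2.47 ± 0.0950 and 2.65 ± 0.190 CPM in LIM1215-parental. GPR137B, a lysosomal membrane protein, read 0.123, 0.188 and 1.13 CPM in LIM1215-R1, with 1.66 to 2.36 CPM in LIM1215-parental, and its call against parental was lost with DESeq2's Wald test (adjusted p = 0.0784).

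**Figure D2:**
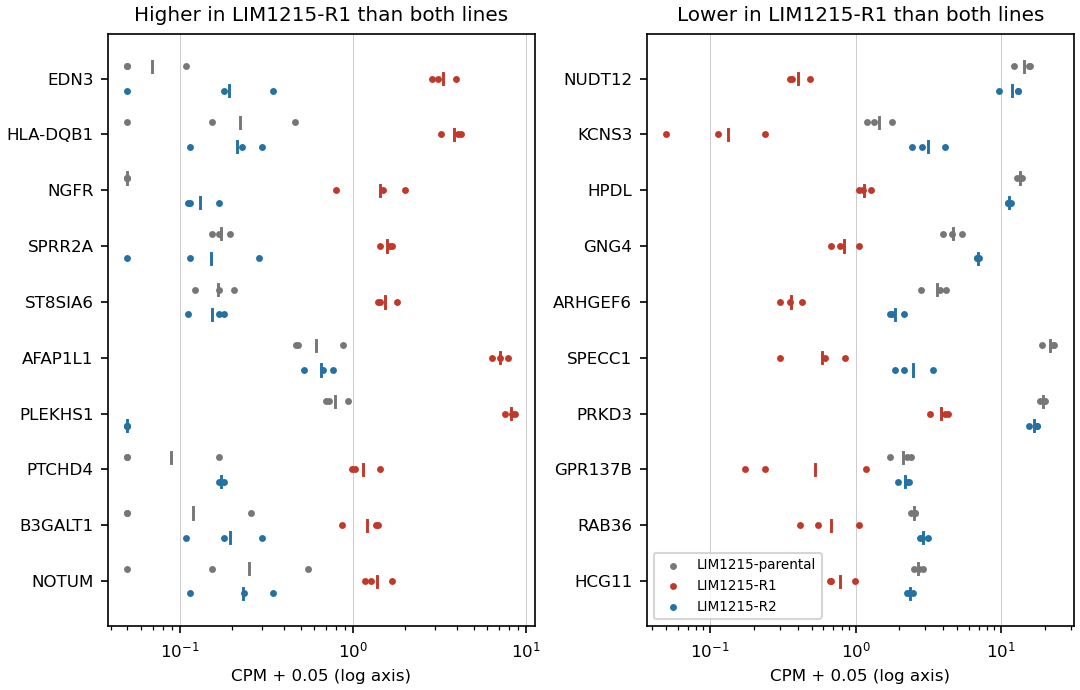
Level in CPM plus 0.05 on a log axis for the 10 genes highest and the 10 lowest in LIM1215-R1 against both other lines, with 1 point per library coloured by line and a tick at the mean. By the choice of genes, LIM1215-R1 libraries lie to one side of all other libraries, with the widest spread in GPR137B.

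Of 37 chemokines and other NF-kB targets on the list, most of those tested were higher in LIM1215-R1 in each comparison taken alone. Of 25 list members tested against parental, 17 rose (68.0%, beside 13.8% of all genes), 1 fell and 7 did not pass, with a median log2 fold change of 1.01. Against LIM1215-R2, 19 of 26 were higher (73.1%, beside 4.44% of all genes) and 7 did not pass, with a median log2 fold change of 0.64. These 19 were chosen by the same LIM1215-R1 libraries, so their place against parental is not read as a result of its own. In CCL28, a mucosal chemokine, all LIM1215-R1 libraries lay below all parental ones. Because the list consists of known NF-kB targets, its promoters were also read for the NF-kB consensus motif, searched on both strands in 250 bases before to 50 bases after each RefSeq start.

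The motif was found in 13 of 21 promoters of tested list members (61.9%), in 13.1% of the 12111 promoters of tested genes and in 10.8% of all 27305 promoters. A list of textbook targets is not independent of this motif, and a match is a description of letters, not of binding. Among the DEGs higher than parental it was found in 15.1% of promoters, and among those lower in 10.0%. The stretches below show the motif in capitals for 10 members that were higher in LIM1215-R1 than in LIM1215-R2, each as 60 bases of GRCh38.p14 on the strand of the gene. In CXCL1, CXCL2, CXCL3 and CXCL5, clustered on chromosome 4, the matched letters were the same, GGGAATTTCCC, and TNFAIP3 held the motif at 2 places.
CXCL1: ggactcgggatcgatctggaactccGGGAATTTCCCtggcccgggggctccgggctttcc
CXCL2: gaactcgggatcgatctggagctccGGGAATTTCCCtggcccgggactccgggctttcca
CXCL3: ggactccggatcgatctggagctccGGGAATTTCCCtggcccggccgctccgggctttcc
CXCL5: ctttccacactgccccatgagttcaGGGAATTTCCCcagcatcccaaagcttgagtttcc
CCL20: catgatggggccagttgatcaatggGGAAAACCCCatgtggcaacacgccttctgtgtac
IL32: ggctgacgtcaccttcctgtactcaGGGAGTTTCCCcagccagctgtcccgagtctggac
NFKBIA: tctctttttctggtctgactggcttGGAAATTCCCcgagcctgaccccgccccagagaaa
TNFAIP3: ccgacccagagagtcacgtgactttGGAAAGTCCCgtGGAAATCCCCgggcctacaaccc
BIRC3: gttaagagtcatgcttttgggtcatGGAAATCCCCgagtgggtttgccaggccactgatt
LCN2: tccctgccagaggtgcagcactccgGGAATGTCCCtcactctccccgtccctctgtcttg
The stretches lie as follows: CXCL1 at chr4:73869289-73869348 (plus strand), CXCL2 at chr4:74099239-74099298 (minus strand), CXCL3 at chr4:74038734-74038793 (minus strand), CXCL5 at chr4:73998734-73998793 (minus strand), CCL20 at chr2:227813738-227813797 (plus strand), IL32 at chr16:3065279-3065338 (plus strand), NFKBIA at chr14:35404796-35404855 (minus strand), TNFAIP3 at chr6:137867167-137867226 (plus strand), BIRC3 at chr11:102317260-102317319 (plus strand) and LCN2 at chr9:128149253-128149312 (plus strand).

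The chemokine genes among them attract neutrophils or lymphocytes. CCL20, a ligand of CCR6, read 11.6, 11 and 11.6 CPM in LIM1215-R1, against 8.08, 7.73 and 6.67 CPM in LIM1215-parental and 3.98, 3.41 and 3.13 CPM in LIM1215-R2. It was thus highest in LIM1215-R1 and lowest in the other resistant line, with log2 fold changes of 0.62 (SE 0.116, edgeR adjusted p = 0.00041) against parental and 1.70 (SE 0.136, adjusted p = 8.82e-10) against LIM1215-R2. CXCL8, the neutrophil attractant interleukin-8, read 114, 97.8 and 109 CPM in LIM1215-R1 against 30.8 to 38.3 CPM in LIM1215-parental and 60.8 to 70.1 CPM in LIM1215-R2. CXCL5 had 70.5 CPM in LIM1215-R1, 28.4 CPM in LIM1215-parental and 36.5 CPM in LIM1215-R2 on average. CXCL1 and CXCL2 did not pass against parental (log2 fold changes 0.11 and 0.15, adjusted p = 0.104 and 0.126 by edgeR) but were higher than in LIM1215-R2 (0.44 and 0.71). NFKBIA, the inhibitor that NF-kB itself induces, had the same pattern, with 58.1 to 62.6 CPM in LIM1215-R1, 49.9 to 55.0 CPM in LIM1215-parental and 38.6 to 43.8 CPM in LIM1215-R2. CCL28, the member that fell, had 2.64 ± 0.266 CPM in LIM1215-R1, below the 4.89 ± 0.529 CPM of LIM1215-parental and above the 1.20 ± 0.194 CPM of LIM1215-R2.

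Other members of the list that were higher in LIM1215-R1 than in LIM1215-R2 encode subunits, regulators and effectors of NF-kB. NFKB2, the precursor of the p52 subunit, read 117, 112 and 111 CPM in LIM1215-R1, against 55.9, 62.6 and 56.6 CPM in LIM1215-parental and 73.5, 74.7 and 74.6 CPM in LIM1215-R2. Its partner subunit RELB rose from 22 ± 1.42 to 38.6 ± 2.11 CPM, with 27.1 ± 1.51 CPM in LIM1215-R2. BIRC3, an inhibitor of apoptosis, rose from 41.2 ± 2.83 to 82.9 ± 7.84 CPM, with 53.6 ± 2.91 CPM in LIM1215-R2. For all 3 genes the libraries of LIM1215-R1 lay above those of both other lines. TNFAIP3, a ubiquitin-editing inhibitor of the pathway, had mean levels of 22.5 CPM in LIM1215-R1, 15.0 CPM in LIM1215-parental and 14.8 CPM in LIM1215-R2. LCN2, an iron-sequestering lipocalin, rose from 61.3 ± 4.54 to 428 ± 24.2 CPM, with 263 ± 6.15 CPM in LIM1215-R2. C3, the third complement component, read 4.17, 3.51 and 3.00 CPM in LIM1215-R1 and at most 1.04 CPM in any library of the other lines. IL32, a proinflammatory cytokine, rose from 83.5 ± 7.13 to 242 ± 13.5 CPM, with 186 ± 5.94 CPM in LIM1215-R2. IL18, an inflammasome cytokine, had 13.4 CPM in LIM1215-R1, 6.64 CPM in LIM1215-parental and 6.75 CPM in LIM1215-R2.

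Most p53 targets on the list were likewise higher in LIM1215-R1 in each comparison taken alone. Of 28 tested against parental, 17 rose (60.7%, beside 13.8% of all genes), 1 fell and 10 did not pass (median log2 fold change 0.45), and against LIM1215-R2 18 of 27 were higher (66.7%, beside 4.44% of all genes) and 9 did not pass (median 0.38). These 18 were also chosen by the same LIM1215-R1 libraries. Among them, the LIM1215-R1 libraries of BBC3 and BTG2 overlapped with the parental ones. CDKN1A, which encodes p21, read 373, 420.4 and 368 CPM in LIM1215-R1, against 108, 119 and 107 CPM in LIM1215-parental and 209.7, 220.3 and 216 CPM in LIM1215-R2. Its log2 fold changes were 1.81 (SE 0.0603, edgeR adjusted p = 1.61e-13) against parental and 0.85 (SE 0.0505, adjusted p = 3.33e-12) against LIM1215-R2, and no libraries of different lines overlapped.

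MDM2, the ubiquitin ligase that limits p53, read 332, 294 and 314 CPM in LIM1215-R1 against 214 to 232 CPM in LIM1215-parental and 221 to 249 CPM in LIM1215-R2. FAS, a death receptor, rose from 17.1 ± 0.823 to 35.5 ± 2.72 CPM, with 24.4 ± 1.32 CPM in LIM1215-R2. PHLDA3, an inhibitor of AKT, rose from 27.9 ± 2.02 to 65.3 ± 6.32 CPM, with 38.7 ± 1.81 CPM in LIM1215-R2. The parental and LIM1215-R2 levels lay close together for some members and apart for others. FDXR, a mitochondrial ferredoxin reductase, had 59.4 ± 2.39 CPM in LIM1215-R1, 39.3 ± 4.61 CPM in LIM1215-parental and 40.2 ± 3.01 CPM in LIM1215-R2, and SESN1, a sestrin of the stress response, had 22.4 ± 2.46, 14.5 ± 0.515 and 15.1 ± 0.768 CPM. EDA2R, a receptor gene at the edge of detection, was the member that fell, from 0.678 ± 0.188 to 0.103 ± 0.0940 CPM. In the BCL2 family, 8 of 19 members rose and 2 fell against parental (42.1% and 10.5%, beside 13.8% and 12.4% of all genes). Against LIM1215-R2, 4 of 19 members were higher (21.1%, beside 4.44% of all genes). Their LIM1215-R1 libraries lay above those of parental for BAX, overlapped with them for BBC3 and lay below them for BIK and BCL2L14.

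**Figure D3:**
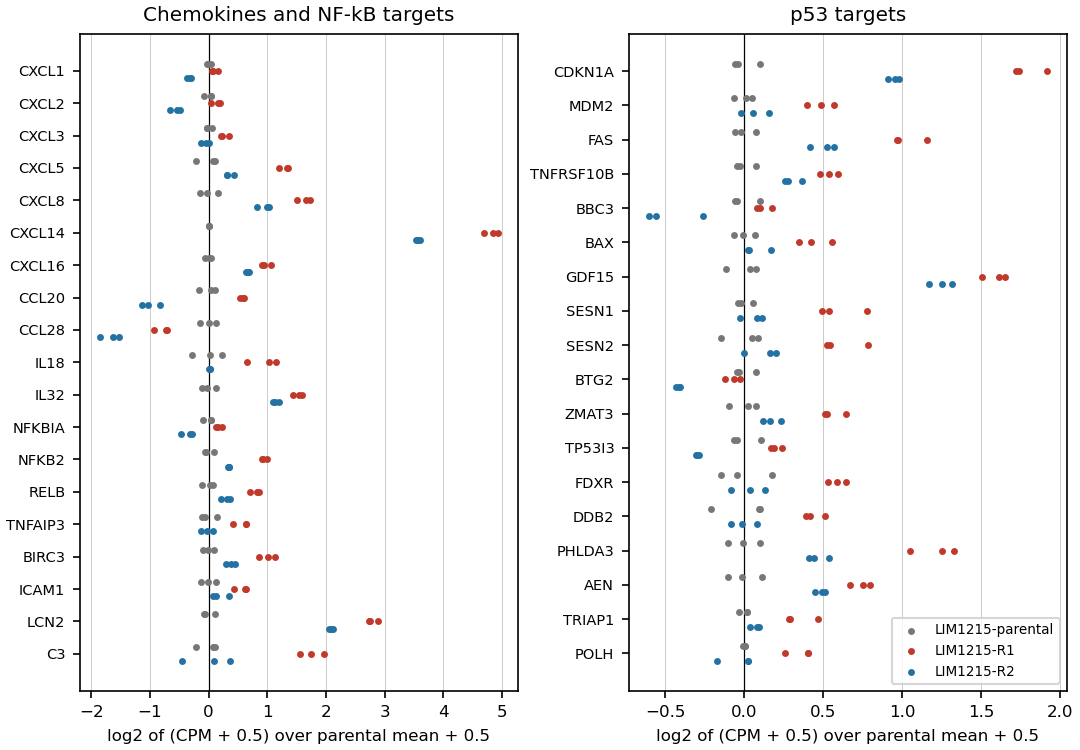
Log2 ratio of each library to the parental mean, on CPM plus 0.5, for the 19 chemokine and NF-kB members and the 18 p53 targets that were higher in LIM1215-R1 than in LIM1215-R2, with 1 point per library coloured by line. LIM1215-R1 lies above LIM1215-R2 by the choice of members; its position against parental is above 0 for most, with CCL28 below.

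Most sterol synthesis genes were higher in LIM1215-R1 than in LIM1215-R2. Of 25 members, 15 were higher in LIM1215-R1 than in LIM1215-R2 (beside 4.44% of all genes), 1 lower and 9 did not pass, with a median log2 fold change of 0.22. The count was 8 without LIM1215-R1 replicate 3, 7 without LIM1215-R2 replicate 2 and 8 without LIM1215-R2 replicate 3. Against parental, 2 members rose, 5 fell (8% and 20%, beside 13.8% and 12.4% of all genes) and 18 did not pass. INSIG1, a sterol sensor that restrains the pathway, read 107, 106 and 102 CPM in LIM1215-R1, against 105, 107 and 112 CPM in LIM1215-parental and 68.6, 62.5 and 67.3 CPM in LIM1215-R2. LIM1215-R1 and parental cells overlapped, and LIM1215-R2 lay below both. IDI1, an isomerase of isoprenoid synthesis, had 145 ± 11.3, 146 ± 12.8 and 104 ± 4.32 CPM in the same order. HMGCS1, which makes the HMG-CoA that feeds the pathway, fell from 415 ± 20.3 CPM in LIM1215-parental to 288 ± 9.96 CPM in LIM1215-R1, above the 234 ± 6.27 CPM of LIM1215-R2.

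In the HER family, the ligand genes that changed against parental rose and the receptor genes that changed fell. Of 17 members tested against parental, 5 rose and 6 fell (29.4% and 35.3%, beside 13.8% and 12.4% of all genes). EREG, which encodes the ligand epiregulin, read 303, 267 and 291 CPM in LIM1215-R1, against 38.3, 31.6 and 33.3 CPM in LIM1215-parental and 143, 145 and 130.4 CPM in LIM1215-R2. Its log2 fold changes were 3.06 (SE 0.0724, edgeR adjusted p = 2.72e-15) against parental and 1.05 (SE 0.0532, adjusted p = 1.69e-13) against LIM1215-R2, with no overlap between lines. AREG, the ligand amphiregulin, read 84.9, 76.8 and 82.6 CPM in LIM1215-R1, 19.2 to 20.4 CPM in LIM1215-parental and 63.2 to 63.7 CPM in LIM1215-R2. The ligand genes BTC and TGFA rose less, from 10.6 ± 0.159 to 20.2 ± 1.29 CPM and from 55.2 ± 1.54 to 72.3 ± 1.65 CPM, and neither passed against LIM1215-R2.

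EGFR itself read 223, 239 and 228 CPM in LIM1215-R1, below the 272, 280.5 and 277 CPM in LIM1215-parental and the 297, 292 and 268 CPM in LIM1215-R2. The differences were small, with log2 fold changes of -0.26 (SE 0.0463, edgeR adjusted p = 0.000255) against parental and -0.31 (SE 0.0481, adjusted p = 5.21e-05) against LIM1215-R2. ERBB3, a receptor with little kinase activity of its own, fell from 406 ± 6.0 to 226 ± 7.56 CPM, and ERBB2 from 224 ± 15.2 to 179 ± 11.4 CPM. Neither passed against LIM1215-R2, where they had 249 ± 6.54 and 174 ± 5.89 CPM. Of the negative regulators, ERRFI1, an inhibitor of EGFR, rose from 40.7 ± 1.31 to 102 ± 2.67 CPM. LRIG1 and the ubiquitin ligase gene CBLB fell, from 61.0 ± 0.926 to 28.0 ± 0.148 CPM and from 17.8 ± 2.0 to 6.99 ± 0.747 CPM. Among 23 other receptor tyrosine kinases, 6 rose and 8 fell against parental (26.1% and 34.8%, beside 13.8% and 12.4% of all genes). Of these, 2 that rose were DEGs (ROR1 and EPHB6) and none that fell. Against LIM1215-R2, 2 of 22 were higher and 4 lower (9.09% and 18.2%, beside 4.44% and 3.68% of all genes). TYRO3, a receptor of the TAM group, rose from 14.9 ± 0.202 to 36.2 ± 3.24 CPM and did not pass against LIM1215-R2. IGF1R, the receptor for insulin-like growth factor, read 19.3, 18.2 and 18.0 CPM in LIM1215-R1 against 33.7 to 35.0 CPM in LIM1215-parental and 28.1 to 32.9 CPM in LIM1215-R2. FGFR1, a fibroblast growth factor receptor, had 34.6 ± 2.08 CPM against 87.3 ± 5.90 and 51.1 ± 1.91 CPM.

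More output and feedback genes of the MAPK cascade rose than fell. Of 32 tested against parental, 19 rose (59.4%, beside 13.8% of all genes), 2 fell and 11 did not pass, with a median log2 fold change of 0.47. Against LIM1215-R2 the list split, with 5 of 31 members higher and 3 lower (16.1% and 9.68%, beside 4.44% and 3.68% of all genes). DUSP6, the ERK phosphatase, read 90.0, 90.3 and 93.8 CPM in LIM1215-R1, 26.5 to 27.0 CPM in LIM1215-parental and 77.8 to 79.1 CPM in LIM1215-R2. DUSP5, a nuclear ERK phosphatase, rose from 10.1 ± 0.721 to 49.3 ± 1.98 CPM, with 38.4 ± 0.450 CPM in LIM1215-R2. These phosphatases were highest in LIM1215-R1. The inhibitors of the cascade upstream of RAF had another order: SPRY4 read 48.2 to 50.5 CPM in LIM1215-R1, 25.1 to 29.3 CPM in LIM1215-parental and 66.4 to 68.6 CPM in LIM1215-R2, and SPRED1 had 78.8 ± 6.89, 43.5 ± 3.15 and 98.6 ± 6.97 CPM in the same order. PHLDA1, a pleckstrin homology domain protein, rose from 16.6 ± 1.15 to 106 ± 1.90 CPM and had 178 ± 7.65 CPM in LIM1215-R2. FOSL1, a subunit of the AP-1 transcription factor, rose from 16.5 ± 1.82 to 43.2 ± 3.44 CPM. In the core of the RAS and MAPK cascade, 3 of 21 members rose and 3 fell (14.3% each, near the 13.8% and 12.4% of all genes), and the RAS inhibitor NF1 was lower than in LIM1215-R2.

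**Figure D4:**
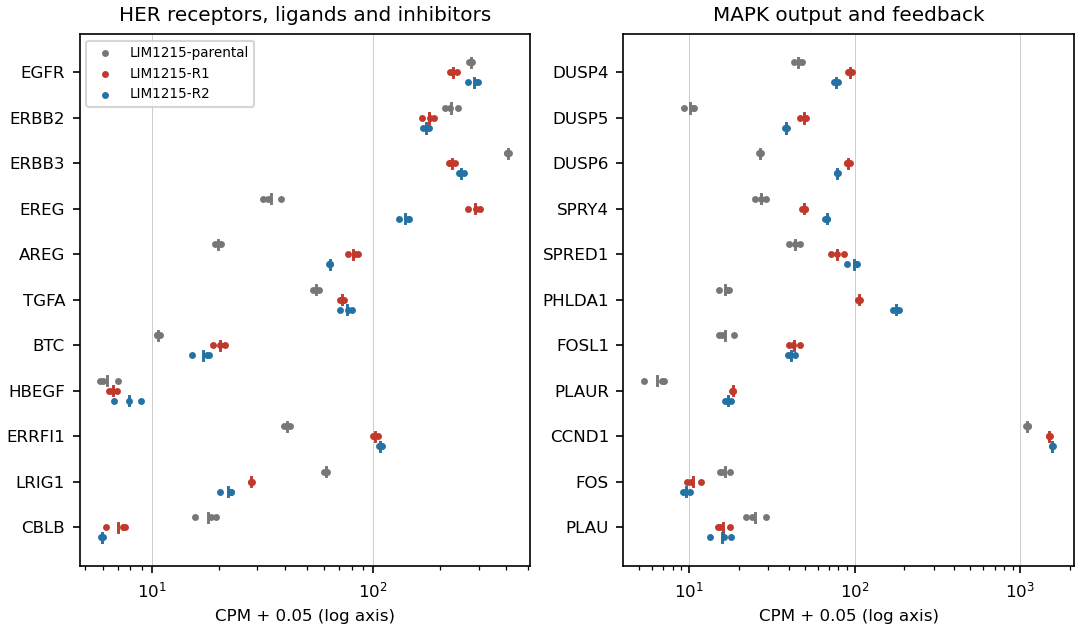
Level in CPM plus 0.05 on a log axis for HER receptors, ligands and inhibitors and for MAPK output genes, with 1 point per library coloured by line and a tick at the mean. EREG, AREG and DUSP6 lie highest in LIM1215-R1, EGFR lowest, and SPRY4 and PHLDA1 between LIM1215-parental and LIM1215-R2.

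AP-1 binds the motif TGANTCA, which was searched on both strands of the same promoter windows. It was found in 11.2% of promoters of DEGs higher than parental (49 of 437) and in 8.11% of those lower (21 of 259), beside 4.87% of tested genes and 7.76% of all promoters. Among DEGs higher than LIM1215-R2 it was found in 10.3% (8 of 78). These windows overlap for neighbouring genes, and the shares are given without a test. The promoter sets also differed in base content. The median number of CG dinucleotides per promoter was 18 in DEGs higher and in DEGs lower than parental, 25 in tested genes and 14 in all promoters. The part of base content in the motif shares was not tested. The promoters of SPRR2A, one of the genes set apart in LIM1215-R1, of CLDN2, and of PLAUR, the urokinase receptor gene of the MAPK output list, show the motif in capitals.
SPRR2A: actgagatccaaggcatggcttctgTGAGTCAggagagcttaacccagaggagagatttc
CLDN2: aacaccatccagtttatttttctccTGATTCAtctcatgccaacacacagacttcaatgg
PLAUR: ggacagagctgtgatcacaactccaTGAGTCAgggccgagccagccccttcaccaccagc
In GRCh38.p14 these stretches are SPRR2A at chr1:153057675-153057734 (minus strand), CLDN2 at chrX:106900079-106900138 (plus strand) and PLAUR at chr19:43670321-43670380 (minus strand).

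Interferon-stimulated genes formed the list with the most DEGs against parental. Of 41 tested, 28 rose (68.3%, beside 13.8% of all genes), 17 of them as DEGs, and 1 fell, with a median log2 fold change of 0.93. Against LIM1215-R2, 3 of 42 were higher (7.14%, beside 4.44% of all genes) and 1 was lower. IFI6, an inhibitor of apoptosis at mitochondria, read 125, 146 and 137 CPM in LIM1215-R1, against 9.44, 12.3 and 8.46 CPM in LIM1215-parental and 144, 150.5 and 155 CPM in LIM1215-R2. ISG15, a ubiquitin-like modifier, rose from 2.57 ± 0.192 to 22.7 ± 2.58 CPM and did not pass against LIM1215-R2, at 20.3 ± 5.96 CPM. IFI27 rose from 0.295 ± 0.0708 to 16.5 ± 0.648 CPM, with 19.0 ± 2.68 CPM in LIM1215-R2. For these 3 genes the libraries of the resistant lines overlapped. At low levels, BST2, the viral tether tetherin, was at 0 in LIM1215-parental and had 1.76 ± 0.294 CPM in LIM1215-R1, against 0.418 ± 0.269 CPM in LIM1215-R2. GBP1, an interferon-induced GTPase, had 2 parental counts in all, 1.12 ± 0.397 CPM in LIM1215-R1, and a mean of 0.251 ± 0.134 CPM in LIM1215-R2.

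Of 18 antigen presentation genes, 9 rose and 1 fell against parental (50% and 5.56%, beside 13.8% and 12.4% of all genes). The MHC class II gene HLA-DRB1 read 6.26, 6.71 and 6.38 CPM in LIM1215-R1, 2.18 to 2.31 CPM in LIM1215-parental and 1.67 to 2.08 CPM in LIM1215-R2, and like HLA-DQB1 it is uncertain for reads shared with paralogs. CD68, a lysosomal marker of macrophages that other cells also express, was the 1 changed gene among 10 tested markers of other cell types, and rose from 8.29 to 13.4 CPM on average. The part of other cells in the class II levels was not tested, and the leukocyte marker PTPRC was at 0.

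More goblet and secretory genes fell than rose. Of 27 tested against parental, 12 fell (44.4%, beside 12.4% of all genes), 8 of them as DEGs, and 5 rose, with a median log2 fold change of -0.84. ATOH1, the transcription factor that specifies secretory cells, was at 0 in LIM1215-R1 and at least 30.7-fold lower than in LIM1215-parental. REG4, a secreted lectin, read 12.9, 16.9 and 14.7 CPM in LIM1215-R1, against 98.5, 104 and 99.0 CPM in LIM1215-parental and 29.4, 31.8 and 34.7 CPM in LIM1215-R2. AGR2, a disulfide isomerase needed for mucin folding, fell from 526 ± 4.91 to 162 ± 5.96 CPM, with 207 ± 8.22 CPM in LIM1215-R2. Both were lowest in LIM1215-R1. Against LIM1215-R2, 8 of 23 list members were lower and 3 higher (34.8% and 13.0%, beside 3.68% and 4.44% of all genes). For these 8, the LIM1215-R1 libraries lay below the parental ones in 2 genes, overlapped with them in 3 and lay above them in 3.

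Mucin genes followed other orders of the lines. MUC5AC, a gel-forming mucin, read 18.6, 21.3 and 20.4 CPM in LIM1215-R1, with 18.6, 26.8 and 21.4 CPM in LIM1215-parental, which overlapped (log2 fold change -0.13, SE 0.111, edgeR adjusted p = 0.406), and 295, 294 and 298 CPM in LIM1215-R2. MUC5B rose from 19.2 ± 1.88 to 33.3 ± 3.06 CPM, below the 56.4 ± 2.37 CPM of LIM1215-R2. MUC13, a membrane mucin, fell from 854 ± 36.0 to 675 ± 9.21 CPM, well above the 369 ± 20.3 CPM of LIM1215-R2. Mucin genes hold repeats and similar domains, so reads may be shared between them. CREB3L1, a transcription factor of secretory cells, fell from 69.3 ± 4.25 to 13.7 ± 1.76 CPM and had 5.73 ± 0.612 CPM in LIM1215-R2.

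Of 28 transcription factors of the intestinal lineage, 14 fell and 7 rose against parental (50% and 25%, beside 12.4% and 13.8% of all genes). Against LIM1215-R2, 2 were higher and 1 lower (7.14% and 3.57%, beside 4.44% and 3.68% of all genes). VDR, the vitamin D receptor, fell from 383 ± 27.7 to 196 ± 6.98 CPM, and GATA6, an endoderm factor, from 141 ± 3.30 to 73.7 ± 3.90 CPM. KLF5, a factor of proliferating crypt cells, fell from 444 ± 13.4 to 269 ± 8.54 CPM, and CDX1, a homeobox factor of the intestine, from 195 ± 9.26 to 108 ± 5.23 CPM. None of these 4 passed against LIM1215-R2. Stem cell genes were mixed, with 5 of 20 higher and 8 lower against parental (25% and 40%, beside 13.8% and 12.4% of all genes). Colonocyte genes were mixed too, with 9 of 25 higher and 8 lower (36.0% and 32.0%). Among Wnt targets, 8 of 29 rose and 7 fell (27.6% and 24.1%), while 5 of 28 were higher and 7 lower than in LIM1215-R2 (17.9% and 25%, beside 4.44% and 3.68% of all genes). CCND2, the cell cycle driver cyclin D2, read 248, 230.3 and 224 CPM in LIM1215-R1, 143 to 157 CPM in LIM1215-parental and 81.0 to 87.6 CPM in LIM1215-R2.

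Of 16 mesenchymal genes, 7 rose and 2 fell against parental (43.8% and 12.5%, beside 13.8% and 12.4% of all genes, so that the share that fell was near that of all genes). Of 28 epithelial genes, 9 rose and 5 fell (32.1% and 17.9%). CDH11, a mesenchymal cadherin, read 4.35, 4.2 and 3.88 CPM in LIM1215-R1, 1.21 to 1.42 CPM in LIM1215-parental and 1.11 to 1.49 CPM in LIM1215-R2, so that it stood apart as TAGLN did. S100A4, a calcium-binding protein of motile cells, rose from 1.71 ± 0.309 to 3.96 ± 0.726 CPM but had 13.7 ± 0.791 CPM in LIM1215-R2. The epithelial gene EPCAM fell from 911 to 758 CPM on average. Of 32 genes of the TGF-beta and BMP pathway, 9 rose and 11 fell (28.1% and 34.4%). LTBP1, which tethers latent TGF-beta, fell from 8.90 ± 0.164 to 4.64 ± 0.549 CPM and had 0.643 ± 0.202 CPM in LIM1215-R2. Of 19 YAP and TEAD targets, 10 rose and 3 fell (52.6% and 15.8%), among the former ANKRD1, which had 2 parental counts in all and 8.39 CPM in LIM1215-R1.

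Of 32 glycolysis and hypoxia genes, 18 rose against parental (56.3%, beside 13.8% of all genes) and 4 fell, with a median log2 fold change of 0.31. The glucose transporter genes SLC2A1 and SLC2A3 rose from 408 ± 27.2 to 898 ± 52.9 CPM and from 6.97 ± 0.325 to 47.5 ± 3.09 CPM, and exceeded LIM1215-R2, at 715 ± 20.2 and 33.0 ± 0.791 CPM. PKM, the last kinase of glycolysis, rose from 1151 ± 54.1 to 1949.7 ± 63.7 CPM. NDRG1 and PFKFB4, known hypoxia targets, fell instead, from 40.6 ± 3.42 to 15.6 ± 0.929 CPM and from 37.6 ± 1.69 to 18.7 ± 0.745 CPM. Of 32 stress response genes, 15 rose and 6 fell (46.9% and 18.8%, beside 13.8% and 12.4% of all genes). Among genes of proliferation, 10 of 32 mitosis genes rose and 2 fell (31.25% and 6.25%, beside 13.8% and 12.4% of all genes). Of 37 DNA replication genes, 4 rose and 5 fell (10.8% and 13.5%), near the shares of all genes.

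**Figure D5:**
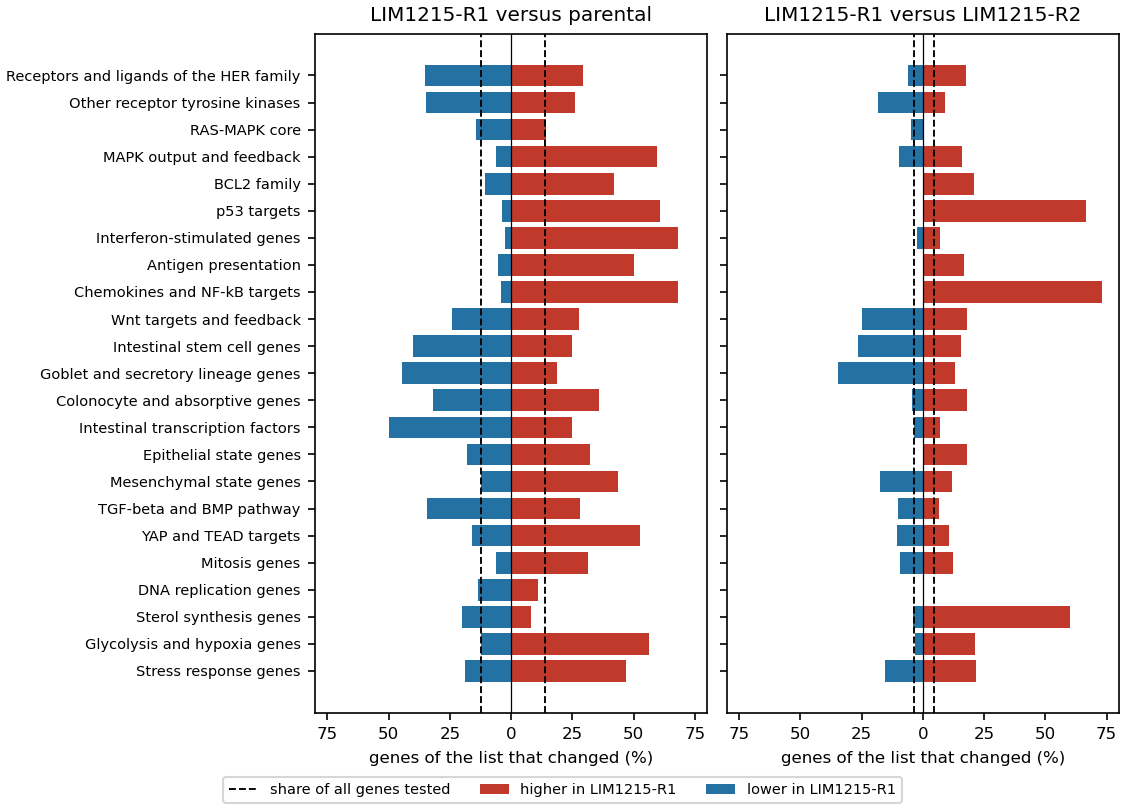
Percent of the tested members of each gene list that were higher or lower in LIM1215-R1, against LIM1215-parental and against LIM1215-R2, with 0.01 as the limit of the adjusted p. Dashed lines give the percent of all tested genes, and the chemokine, p53 and sterol lists have the highest shares against LIM1215-R2.

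Changes were also laid along the chromosomes of the RefSeq annotation. The median log2 fold change against parental ranged from -0.10 on chromosome 13 to 0.07 on chromosome 22, and against LIM1215-R2 from -0.07 on chromosome 13 to 0.05 on chromosome 19. In windows of 10 Mb with at least 15 genes kept by this filter, the highest median against parental was 0.32. It came from 24 genes beyond 50 Mb on chromosome 22, of which 91.7% were above 0. Its DEGs were PANX2, a pannexin channel, which rose from 0.324 ± 0.134 to 4.71 ± 0.817 CPM, SHANK3, a synaptic scaffold, from 1.66 ± 0.322 to 12.4 ± 1.85 CPM, and ODF3B, from 0.225 ± 0.125 to 1.04 ± 0.649 CPM. The lowest was -0.42, from 32 genes between 20 and 30 Mb on chromosome 19, of which 15.6% were above 0, and its DEG was PLEKHF1, an endosomal protein, which rose from 0.389 ± 0.159 to 2.5 ± 0.991 CPM. Against LIM1215-R2 the window medians ranged from -0.18, between 110 and 120 Mb on chromosome 5, to 0.11, between 50 and 60 Mb on chromosome 11. These medians are descriptions of neighbouring genes, which are not independent.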

How the data were processed

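Stranded poly(A) libraries of 3 replicates per line were sequenced. The authors used STAR on hg38, obtained gene counts with HTSeq 0.9.1 and deposited raw counts without normalization, by gene symbol. Gene positions, which matched for 17765 tested genes, and promoters came from RefSeq on GRCh38.p14. Each comparison was fitted to its 6 libraries in R 4.3.3 with edgeR 4.0.16 (limma 3.58.1), keeping genes with at least 10 summed counts, with TMM scaling and a quasi-likelihood test. CPM values use TMM factors of all 9 libraries. SEs were derived from the test statistic. Groups at 0 were set to 3 counts for fold bounds. Named genes were 10 DEGs per direction, ranked by the smaller of their changes against both other lines and with at least 1 CPM in the higher groups, the largest changes against parental, changed genes with the largest gain or loss in CPM, list members, and DEGs in the extreme chromosome windows. Members and lists were chosen with earlier results of these data known, and the list counts under other settings and the NF-kB motif search were added after seeing the data. The test was tried on simulated counts. Alternatives included DESeq2 1.42.0, other scalings, filters and thresholds, a replicate block and leaving out each library. LIM1215-R2 against parental was not analysed here. Some list members are not reported here by name.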

Additional observations from a re-analysis of the deposited data

Results flagged for a closer look

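The difference between LIM1215-R1 and LIM1215-R2 passed the test of that difference itself and the DEG threshold for 155 genes. The 34 given here are those among the named genes and list members, 20 of them named for standing apart from LIM1215-R2 and parental, with edgeR adjusted p values from 5.46e-25 to 0.00513. This is the difference between the effects of the resistant lines against parental, since the parental libraries are common to both. Values below are log2 fold changes of LIM1215-R1 minus LIM1215-R2.

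Among genes that also stood apart from parental, the differences were 4.42 for EDN3, 4.46 for HLA-DQB1, 3.95 for NGFR, 3.80 for SPRR2A, 3.76 for ST8SIA6, 3.54 for AFAP1L1, 3.07 for PTCHD4, 2.94 for B3GALT1 and 2.79 for NOTUM. For PLEKHS1, which LIM1215-R2 lacked, the bound was at least 131-fold. In the other direction they were -5.05 for NUDT12, -5.07 for KCNS3, -3.35 for HPDL, -3.10 for GNG4, -2.52 for ARHGEF6, -2.15 for SPECC1, -2.13 for PRKD3, -2.14 for GPR137B, -2.18 for RAB36 and -1.66 for HCG11.

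Signalling and matrix genes followed, with 2.42 for APCDD1, 1.52 for SMOC2, 2.84 for LTBP1, 2.46 for TAGLN, 1.69 for CDH11 and -1.79 for S100A4. Immune genes had 2.07 for BST2, 2.14 for GBP1, 1.82 for HLA-DRB1, 1.70 for CCL20 and 2.29 for C3. Of the mucins, MUC5AC had -3.87 and MUC6 -1.92, and the carbonic anhydrase gene CA2 had 1.71. CA2 read 1.29, 1.19 and 0.813 CPM in LIM1215-R1 and did not pass against parental (log2 fold change 1.5, edgeR adjusted p = 0.0124), and MUC6 read 0.245, 0.502 and 0.313 CPM against 1.55, 1.49 and 1.04 CPM in LIM1215-R2.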

How the results depend on the processing

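Counts of DEGs depended on how low counts and the fold threshold were treated. For DEGs against parental, higher and lower, 598 and 347 became 214 and 102 with DESeq2's lfcShrink, 219 and 105 with at least 10 counts in every library, and 240 and 134 when edgeR's glmTreat tested against 1.5 itself. For DEGs against LIM1215-R2, 111 and 44 became 2 and 1, 27 and 11, and 14 and 10 in the same order, and 200 and 79 at a log2 fold change of at least 1. For genes apart from both other lines, 59 and 13 became 0 and 0, 5 and 4, 7 and 5, and 105 and 24. Shrinkage pulls fold changes towards 0, most strongly at low counts. With it none of the 59 and 13 genes remained, well-counted ones such as TAGLN and HPDL included. DESeq2's Wald test without it gave 46 and 10 such genes, all among the 59 and 13. Requiring 10 counts everywhere removes genes near 0 in one line, which lowered interferon-stimulated genes that rose from 28 to 18 and goblet genes that fell from 12 to 7.

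With each library left out in turn, DEGs against parental were 525 to 595 and 301 to 343, DEGs against LIM1215-R2 89 to 112 and 34 to 46, and genes apart from both 45 to 57 and 11 to 15. Sterol synthesis genes higher than in LIM1215-R2 ranged from 7 to 14, beside 15 with all libraries. A named gene that a filter removed could not be checked under that setting and is not counted here. Of the largest changes against parental, only SMOC1 and PLA2G2A were left with at least 10 counts in every library. Calls of genes apart from both lines kept direction and threshold in 521 of 568 checks. They were kept in 280 of 282 for the largest changes against parental and in 131 of 140 for the largest gains and losses in CPM. The rest lost the call and none reversed. COX1, COX3 and EEF1A1 were among the last that lost it, and the calls of COX3 and EEF1A1 were lost without LIM1215-R1 replicate 3. Medians of gene lists moved by less than the spread in 348 of 432 checks, and the median of mesenchymal genes against LIM1215-R2, 0.21, became -0.29 with at least 10 counts in every library.

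Replicate numbers did not mark shared cultures in the labels. Deviations of same-numbered LIM1215-R1 and parental libraries correlated at 0.132, 0.287 and 0.0125, and those with LIM1215-R2 at 0.174, -0.0714 and 0.00669, so not every library correlated best with its own number. A block for the replicate number, as if the pairing held, gave 629 and 379 DEGs against parental, 118 and 44 against LIM1215-R2 and 61 and 14 apart from both. Depth limits genes under about 1 CPM, which rest on few reads.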
